A study of Strigamia maritima with 9 samples.

Results

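CopiaMBD2 is a methyl-CpG binding domain encoded by a Copia-type retrotransposon of the centipede *Strigamia maritima*, and its called binding sites on native genomic DNA were set against those on the same kind of DNA after amplification. The members are all rows of its deposited peak lists, 14001 native-DNA peaks and 133 amplified-DNA peaks, of 37836 peaks in the 6 lists of the series. Both libraries came from adult tissue of the strain behind the genome sequence, and the DNA was sheared to a mean of 200 bp and ligated to adapters. The protein was translated in vitro and fused to HaloTag, a tag that holds it on beads, and each list was called against a library made with HaloTag alone on the same DNA kind. Amplified DNA had gone through 11 PCR cycles before binding, while native DNA had not, and all captured DNA was then amplified for 20 cycles. There was 1 library per group and no replicate, so no test between groups was possible and every value describes these libraries. Peaks are not replicates of a condition. The intervals given are 95% intervals (exact Clopper-Pearson for shares, exact Poisson for pileups, order statistics for medians). They cover counting error only and no spread between libraries. They also take the counts as separate molecules, which cannot be checked for reads copied by PCR and carrying no molecular identifier. Where a count was 0, the limit given is instead 3 counts over the total.

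Methyl-CpG binding domains are protein modules known from vertebrates, where they recognise CpG dinucleotides methylated on both strands and recruit other proteins to methylated chromatin. PCR copies the base sequence and leaves out the methyl groups, so amplified DNA asks how much of the binding depends on sequence alone. DNA affinity purification sequencing uses naked DNA, so nucleosomes and other chromatin proteins play no part in it. The methylation of either DNA was not analysed here. Copia elements are retrotransposons with long terminal repeats that move through an RNA copy.

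Depth differed between the DNA kinds. On native DNA 2224965 tags left after repeated positions were removed were set against the HaloTag-only library sampled down to match, and on amplified DNA the limit was the 3685424 tags of the HaloTag-only library, 1.66 times as many. The fragment length used for calling was 140 bp and 137 bp. Pileup, the number of fragments over a peak's highest point or summit, is given here as fragments per 1000000 of these tags (FPM). The control level, the local HaloTag-only background used by the call, is given likewise. It has a floor near the level of that library's tags spread evenly over the genome. At the floor it is not a signal measured at the site. There stood 2630 native peaks (18.8%) and 11 amplified-DNA peaks (8.27%). Sequences named AFFK are single contigs of the assembly and those named JH are scaffolds.

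Of the native sites, 27 carried an amplified-DNA peak by an overlap of at least 1 bp, which is 0.193% (0.127 to 0.280). These are called kept sites. The remaining 13974 are called lost, which means called on native DNA and not called on amplified DNA. Of the 133 amplified-DNA peaks, the same 27 lay on a native peak, 20.3% (13.8 to 28.1), and 106 were called on amplified DNA only. The numbers came to 6293 peaks per 1000000 tags on native DNA and 36.1 on amplified DNA, so the deeper library had fewer sites.

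Lost sites included the native sites of highest fold. The peak on scaffold JH430098 at 201 to 458 had 35.1 FPM (27.7 to 43.8) over a control level of 1.01, an authors' fold enrichment of 24.3. At JH430153, 333 to 631, the native pileup was 62.0 FPM (52.1 to 73.3) over a control level of 2.26. At contig AFFK01002349, 109 to 319, it was 27.9 FPM (21.4 to 35.7) over a control level of 0.806, the floor of the list. JH431035, 14484 to 14795, reached 31.01 FPM (24.1 to 39.2), and JH430482, 30347 to 30593, reached 38.7 FPM (30.9 to 47.7). These 5 sites were picked among the lost ones, so the absence of an amplified-DNA peak there is fixed by the choice. Of all native sites with a fold of at least 10, 4 of 373 were kept (1.07%, 0.293 to 2.72). In the native CopiaMBD1 and CopiaMBD3 lists the folds there were 7.57 to 14.4 for CopiaMBD1 and 11.9 to 23.3 for CopiaMBD3, beside 21.7 to 24.3 for CopiaMBD2. These lists share the HaloTag-only library of native DNA. The share of all native CopiaMBD2 peaks with such a peak is not given here. Peaks of the other domains at these 5 sites can therefore not be called particular to them.

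How far the amplified-DNA call could have seen a site of unchanged enrichment was computed from the depths. The authors' −log10 p of each peak was recovered to within 0.000271 as a Poisson tail of the pileup over the local control level. The lowest −log10 p called on amplified DNA was 3.92. At the lowest control level of that list a pileup of 11 reaches it, a fold of 3.08. With this limit, 12748 of the 13974 lost sites (91.2%, 90.7 to 91.7) had a native fold that would have passed on amplified DNA. With each site's native control level scaled to the amplified depth, 13876 would have passed (99.3%, 99.1 to 99.4).

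That limit took the summit alone, while a called peak must also be at least 1 fragment length wide, and the part of this in the call was not tested. The 11 amplified-DNA peaks called at the lowest control level had a −log10 p of at least 7.12, a pileup of at least 15 and a fold of at least 4.11. Under that stricter limit the share of lost sites fell to 65.0% (9085 sites) at the lowest control level and 80.7% (11275 sites) at the scaled level. A native fold at least 2 times the lenient limit at the scaled level was found at 4369 lost sites (31.3%), and at least 3 times that limit at 993 (7.11%). At the 5 strongest lost sites the limit was a fold of 2.36 to 3.02, and the native fold was 7.46 to 9.78 times as high. The control level of amplified DNA at lost sites was not measured, so these shares are calculations and not observations. Lost sites had also entered by passing the native call, which selects high native folds, so a large share past a similar limit is partly built in.

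**Figure D1:**
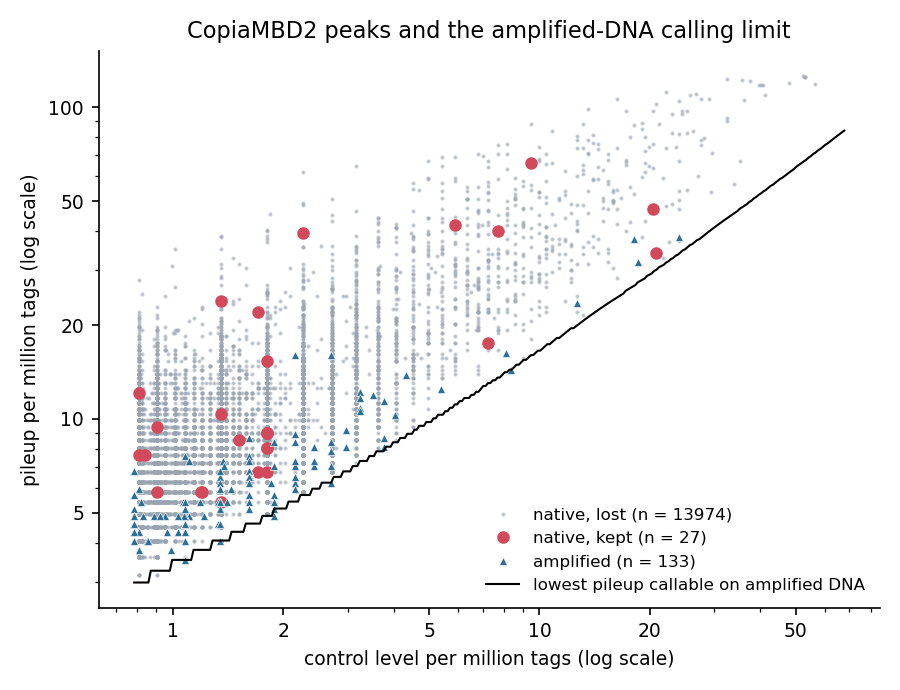
Pileup against control level, in FPM, for CopiaMBD2 peaks, both on log scales. Grey dots are the 13974 lost native peaks, red circles the 27 kept native peaks and blue triangles the 133 amplified-DNA peaks, and the line is the lowest pileup that reaches the lowest −log10 p called on amplified DNA. Most lost peaks lie above the line, and the amplified-DNA peaks lie on or above it by construction.

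The kept sites were spread singly over 27 different sequences, 12 on AFFK contigs and 15 on JH scaffolds. Their native pileup ranged from 5.39 to 66.1 FPM with a median of 8.99 (7.64 to 22.0), and that of lost sites from 3.15 to 126 with a median of 7.64. The native control level had a median of 1.81 FPM at kept sites and 1.20 at lost sites, and was at least 3 times the lowest at 6 of 27 kept (22.2%, 8.62 to 42.3) and 1642 lost sites (11.8%, 11.2 to 12.3). The part of the control level in what was kept was not tested.

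Kept sites were found at every native strength above the weakest. No site with a native pileup of up to 10 fragments was kept (0 of 921, which allows a share of up to 0.326%). The share was 0.12% for pileups of 11 to 15 (6 of 4992), 0.222% for 16 to 20 (8 of 3611), 0.109% for 21 to 30 (3 of 2744), 0.284% for 31 to 50 (3 of 1058) and 1.04% above 50 (7 of 675, 0.418 to 2.12). Sites with a native fold of at least 10 were kept in 4 of 373 cases (1.07%, 0.293 to 2.72), those with a fold of 5 to 10 in 7 of 5361 (0.131%, 0.0525 to 0.269), those of 3 to 5 in 13 of 7076 (0.184%, 0.0979 to 0.314) and those under 3 in 3 of 1191 (0.252%, 0.0520 to 0.734). The interval of the strongest fold class lay just above that of the class below it and overlapped those of the others.

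The 10 kept sites with the highest amplified-DNA fold show the range of behaviours. The first was AFFK01010709, native peak 14 to 303, with 23.8 FPM (17.8 to 31.2) on native DNA and 16.01 (12.2 to 20.7) on amplified DNA. Its summits lay 5 bp apart. JH429903, 190614 to 190861, was nearly level, with 7.64 FPM (4.45 to 12.2) on native and 7.33 (4.83 to 10.7) on amplified DNA. AFFK01015531, 114 to 341, had 41.8 FPM (33.7 to 51.2) on native and 16.01 (12.2 to 20.7) on amplified DNA, intervals that do not meet. The native control level there was 5.88 FPM and the amplified one 2.70, so the native pileup stood over a higher background.

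At the next 4 sites the intervals overlapped. JH430197, 5191 to 5330, had 5.84 FPM on native and 4.34 on amplified DNA, with only 25 bp in common. AFFK01019883, 5519 to 5757, had 8.99 and 5.43 FPM. AFFK01009014, 276 to 415, and JH432211, 12406 to 12545, went the other way. AFFK01009014 had 6.74 FPM on native and 8.41 on amplified DNA, and JH432211 had 6.74 and 7.33. Both native peaks were 140 bp wide, the smallest width the call allowed.

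JH431883, 69722 to 70017, had 8.99 FPM on native and 6.24 on amplified DNA, with summits 9 bp apart. At JH429818 the native peak ran from 4640 to 5398 with 12.1 FPM (7.997 to 17.7), and the amplified-DNA peak at its far edge had 4.07 (2.28 to 6.71), with summits 606 bp apart. At AFFK01005886, 1256 to 1510, the native pileup of 39.6 FPM (31.7 to 48.7) compared with 8.95 (6.16 to 12.6) on amplified DNA. That ratio of 4.42 was the largest among the 27 sites, at nearly equal control levels of 2.26 and 2.16 FPM. The native folds there, from lists sharing a HaloTag-only library, were 10.2 for CopiaMBD1, 14.8 for CopiaMBD2 and 31.6 for CopiaMBD3.

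Over all 27 kept sites the pileup in FPM was higher on native DNA at 23, with a median ratio of native to amplified of 1.44 (1.23 to 1.97) and a range of 0.801 to 4.42. At 7 sites the native interval lay above the amplified one, at none below it, and at 20 the intervals overlapped. At 3 of the 7 (JH429818, AFFK01005927 and JH429684) the summits lay 348 to 606 bp apart, so the pileups compared there were at different positions, which leaves 4 sites with summits within 100 bp. Of these 4, AFFK01015531 (5.88 and 2.70 FPM) and JH431405 (7.69 and 4.315 FPM) had a higher control level on native than on amplified DNA. It was nearly equal at AFFK01005886 and lower on native DNA at AFFK01009481. The control level in FPM had a median ratio of native to amplified of 0.979 (0.792 to 1.34) and a range of 0.419 to 2.24, so single sites differed in either direction, and it was higher on amplified DNA at 14 of 27 sites. The 3 kept sites of lowest amplified-DNA fold, named after their values were seen, had the highest control levels. JH431977, 199150 to 199322, had 47.2 FPM (38.6 to 57.1) on native and 37.7 (31.7 to 44.5) on amplified DNA over control levels of 20.3 and 18.1. AFFK01006819, 348 to 529, had 34.2 FPM (26.9 to 42.8) and 38.3 (32.2 to 45.1) over 20.8 and 24.0. AFFK01009481, 1 to 517, had 66.1 FPM (55.8 to 77.7) and 31.7 (26.3 to 38.0) over 9.49 and 18.6. Of these 3, only AFFK01009481 had intervals that did not meet. All kept sites had to be called in both lists, so a site whose amplified-DNA signal was too weak for a call could not enter the ratio.

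**Figure D2:**
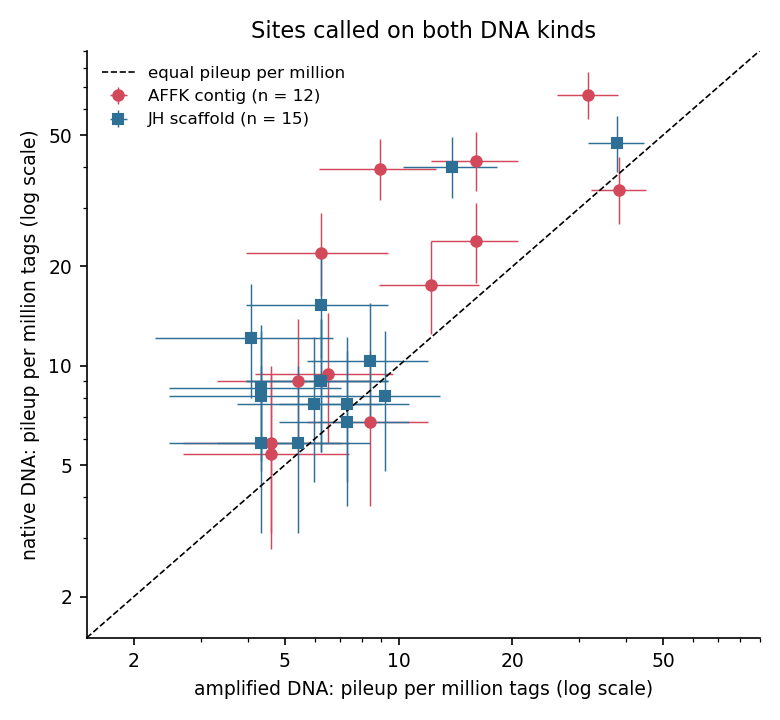
Pileup in FPM on native DNA against amplified DNA at the 27 kept sites, both on log scales, with exact Poisson 95% intervals as bars. Red circles are AFFK contigs and blue squares JH scaffolds, the dashed line marks equal pileup, and 23 of 27 sites lie above it.

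The summits of kept sites mostly fell close together. The distance between native and amplified summits had a median of 40 bp (9 to 75) and was at most 20 bp at 12 sites, at most 50 bp at 17 and at most 100 bp at 23. The amplified summit lay inside the native peak at 25 of 27 sites, and outside it at JH430197 and AFFK01005862. The 4 sites with summits more than 100 bp apart, at 205 to 606 bp, were AFFK01005862 and 3 sites whose native peaks were 759, 810 and 1044 bp wide (JH429818, AFFK01005927 and JH429684). An overlap with a wide native peak can thus join summits that lie apart, and with a reciprocal overlap of 50% 18 sites stayed kept.

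CopiaMBD2 peaks were called wider on native DNA. The lowest −log10 p of a called peak was 2.94 on native and 3.92 on amplified DNA, so the native call reached weaker signal. The part of this in the widths was not tested. Lost native peaks had a median width of 200 bp (199 to 202) with a range of 140 to 1946 bp, and kept native peaks 231 bp (173 to 290) with a range of 140 to 1044 bp. Peaks called on amplified DNA only had a median of 155 bp (150 to 161) and a range of 137 to 284 bp, and amplified-DNA peaks on a native peak 149 bp (142 to 160) and a range of 137 to 229 bp. The medians of the amplified-DNA classes lay below both native medians. At kept sites the native peak was the wider one in 24 of 27 pairs, by a median of 66 bp (23 to 129).

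Wide peaks were found on native DNA alone in these lists. A width of at least 300 bp was reached by 2807 native peaks (20.0%, 19.4 to 20.7) and by none of 133 amplified-DNA peaks, which allows a share of up to 2.26%. A width of at least 500 bp was reached by 676 native peaks, 4 of 27 kept (14.8%, 4.19 to 33.7) and 672 of 13974 lost ones (4.81%, 4.46 to 5.18). These intervals overlapped. The smallest width, 1 fragment length, was found at 1160 native peaks (8.29%) and 19 amplified-DNA peaks (14.3%). The widest native peaks were AFFK01020418 at 1809 to 3754, AFFK01016938 at 5343 to 7158 and JH432062 at 20113 to 21790. They had 10.8 (6.91 to 16.05), 12.1 (7.997 to 17.7) and 17.5 (12.5 to 24.0) FPM at their summits, and none was kept. Across native peaks width rose with pileup (Spearman's rho 0.45 over 14001 peaks of 1 library, a description), from a median of 158 bp at pileups of up to 10 to 268 bp at 31 to 50 and 262 bp above 50.

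**Figure D3:**
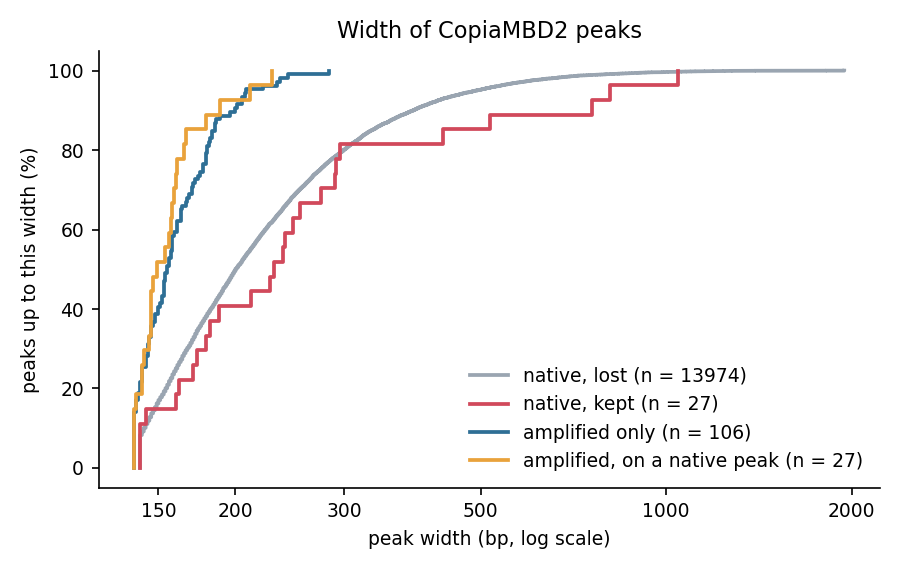
Share of CopiaMBD2 peaks up to a given width, in percent, against peak width in bp on a log scale, for lost (n = 13974) and kept (n = 27) native peaks, amplified-only peaks (n = 106) and amplified-DNA peaks on a native peak (n = 27). Both amplified-DNA curves end by 284 bp, while the native curves run on to 1044 and 1946 bp.

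Summits lay near the middle of peaks on both DNA kinds. The distance from summit to peak centre had a median of 21 bp (20.5 to 21.5) at lost, 27 bp (16.5 to 46) at kept and 20.2 bp (17.5 to 24.5) at amplified-only peaks. The summit fell within the central 50% of the peak at 86.1% of lost (85.5 to 86.6), 70.4% of kept (49.8 to 86.2) and 80.2% of amplified-only peaks (71.3 to 87.3). The kept share was the lowest of these, from 19 of 27 peaks, and its interval met that of lost peaks only at its upper end. The difference was not tested.

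Short contigs held a larger part of the native than of the amplified-only peaks. Of lost native peaks 37.9% (37.1 to 38.7) lay on AFFK contigs, of kept native peaks 44.4% (25.5 to 64.7) and of amplified-only peaks 12.3% (6.69 to 20.1). The amplified-only interval lay below both native ones. Amplified-only peaks leave out those on a native peak by definition. Of all 133 amplified-DNA peaks, 18.8% (12.5 to 26.5) lay on contigs, an interval below that of lost peaks and overlapping that of kept peaks. An amplified-DNA peak on a contig coincided with a native peak in 12 of 25 cases (48%, 27.8 to 68.7), against 15 of 108 on scaffolds (13.9%, 7.99 to 21.9). Native peaks were also denser on contigs (406 per Mb) than on scaffolds (77.6 per Mb), and the part of this density in the overlap was not tested. From the native side the kept share was 0.226% on contigs (0.117 to 0.395) and 0.172% on scaffolds (0.0966 to 0.284), and these intervals overlapped.

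Per Mb spanned by peaks of any list, contigs held 406 native and 1.91 amplified-DNA CopiaMBD2 peaks, and scaffolds 77.6 and 0.964. The span ends at the last peak of a sequence, which shortens sequences with few peaks and raises their density. Median native width was 204 bp on contigs and 198 bp on scaffolds, and median native pileup 8.09 and 7.19 FPM.

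The contig share grew with native signal. AFFK contigs held 32.9% of native peaks with a pileup of up to 10 (29.9 to 36.0), 33.0% at 11 to 15, 33.3% at 16 to 20, 38.3% at 21 to 30, 54.0% at 31 to 50 and 77.9% above 50 (74.6 to 81.0). The control level rose along the same classes, from a median of 0.829 FPM at pileups of up to 10 to 2.26 at 31 to 50 and 6.78 above 50. Above 50 the median control level was 7.23 FPM on contigs and 5.43 on scaffolds. The control level thus moved with both the pileup and the contig share, and its part in them was not tested.

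**Figure D4:**
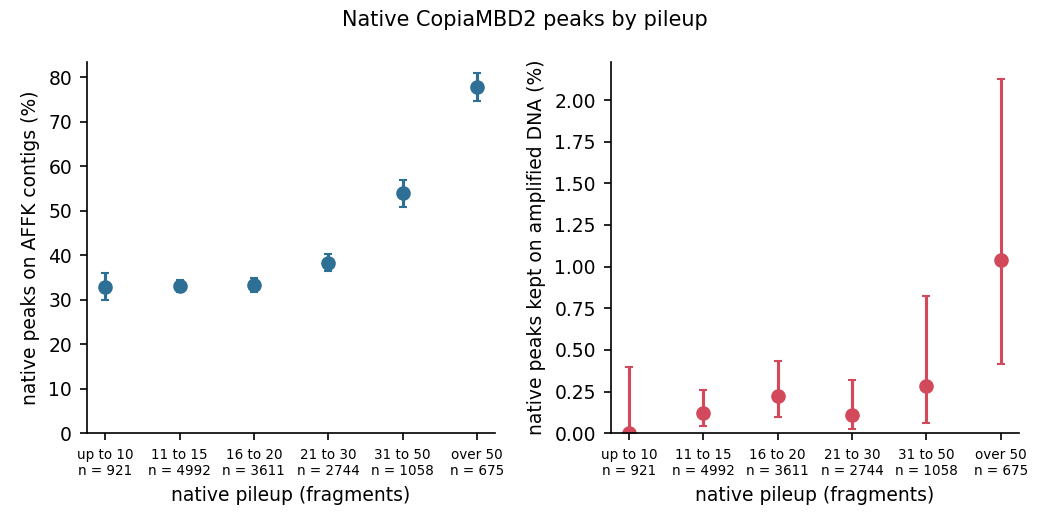
Native CopiaMBD2 peaks by pileup in fragments, with the percentage on AFFK contigs on the left and the percentage kept on amplified DNA on the right, and exact 95% intervals as bars. The contig share runs from 32.9% at up to 10 fragments to 77.9% above 50, and the kept share from 0 to 1.04%.

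The highest native pileups were at a ceiling set by the processing. With 1 tag kept per position and strand, a summit can hold at most 280 fragments of 140 bp, and the native maximum was 280. The 3 highest sites, AFFK01003161 at 569 to 1265, AFFK01017866 at 14 to 591 and AFFK01014187 at 1257 to 1700, had pileups of 280, 279 and 278. Their control levels were 52.4, 52.9 and 52.9 FPM and their folds 2.39, 2.36 and 2.35. At least 90% of the ceiling was reached at 11 native sites, 10 of them on contigs, none of them kept, with folds of 2.099 to 3.75. At such sites pileup and fold are limited by the filter on repeated positions and do not rank binding. On amplified DNA the ceiling was 274 and the highest pileup 141.

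Native sites lay close to each other. Among 9129 pairs of neighbouring summits on the same sequence the median distance was 1727 bp (1671 to 1791), and it was at most 500 bp in 15.02% of pairs (14.3 to 15.8) and at most 1000 bp in 35.4% (34.5 to 36.4). Neighbours were closer on contigs, with a median of 992 bp (938 to 1070), than on scaffolds, with 2146 bp (2033 to 2245). Contigs are short, which limits the distances they can hold. On amplified DNA there were 12 neighbouring pairs, all on scaffolds, 6268 to 364316 bp apart with a median of 46020 bp (10444 to 243392). None of the 12 was within 1000 bp, which allows a share of up to 25%. Spacing depends on the number of peaks in a list, so the lists are not comparable in this beyond their values.

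**Figure D5:**
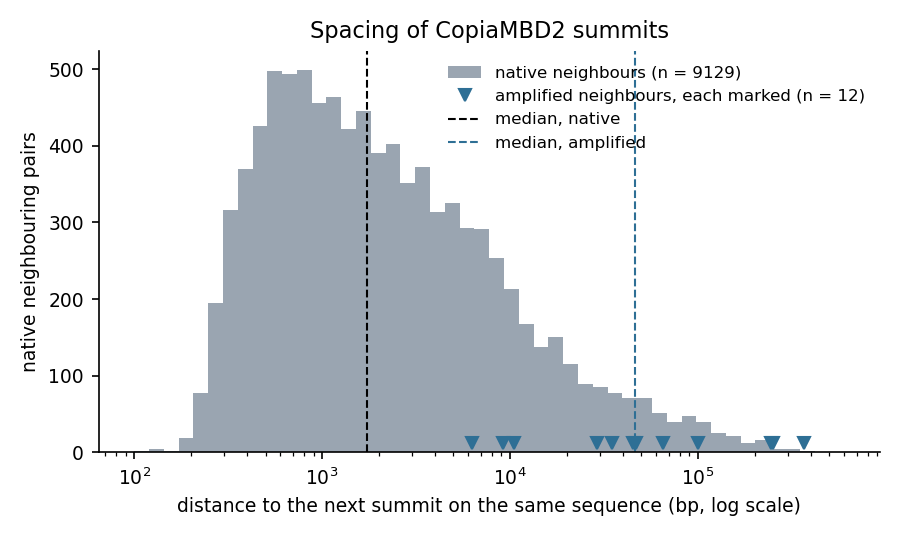
Number of native neighbouring pairs against the distance to the next summit on the same sequence, in bp on a log scale (grey bars, n = 9129), with each of the 12 amplified-DNA distances as a triangle whose height has no meaning. Dashed lines mark the medians of 1727 and 46020 bp, and every amplified-DNA distance is above 6000 bp.

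Native peaks formed runs with gaps of up to 1 kb. There were 2426 runs of at least 2 peaks, holding 6212 native peaks (44.4%), and 7789 peaks stood outside any run. The longest run, chosen after its values were seen, held 13 peaks over 9914 bp on AFFK01016938 (376 to 10289), with pileups of 12 to 36 fragments and no amplified-DNA peak. Runs of 10 peaks lay on AFFK01014949 (23582 to 30646) and JH429927 (666 to 8841), also without one. Of all native peaks only 0.193% were kept, so this absence is not particular to these runs. Of the 2426 runs, 13 contained or touched an amplified-DNA peak, beside 15 of the 7789 peaks outside runs and 28 of all 10215 runs and single peaks together. Runs span more bp than single peaks, and the part of this was not tested. Inside runs lay 12 of 27 kept (44.4%, 25.5 to 64.7) and 6200 lost sites (44.4%, 43.5 to 45.2).

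The 5 sequences with the most native peaks held 431 native and 4 amplified-DNA CopiaMBD2 peaks. The whole lists held 14001 and 133, with 27 native peaks kept (0.193%). The few amplified-DNA peaks on these 5 sequences can therefore not be called particular to them. JH432211 had 120 native peaks up to position 469037 and 1 amplified-DNA peak, which was on a native one. JH431789 had 110 native peaks up to 719418 and none on amplified DNA. JH432185, JH431830 and JH432085 had 74, 73 and 54 native peaks and 1 amplified-DNA peak each, none of these on a native peak. Native density on the 5 scaffolds ran from 10.9 per 100 kb on JH432085 to 25.6 on JH432185 and JH432211. In all, native peaks lay on 4872 sequences and amplified-DNA peaks on 121, of which 101 held both.

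Peaks called on amplified DNA only do not overlap a native peak by definition, and their distances to the nearest one varied widely. Of the 106, 20 (18.9%, 11.9 to 27.6) lay on a sequence without any native CopiaMBD2 peak. The other 86 were 62 to 353574 bp from the nearest native peak, with a median of 13200 bp (6947 to 21371). Of the 106, 8 were within 1 kb and 48 were more than 10 kb away. Their pileup was 3.53 to 23.6 FPM with a median of 5.43 (5.16 to 5.97), and the control level was at least 3 times the lowest at 22 of them (20.8%, 13.5 to 29.7).

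The 5 amplified-only peaks of highest fold had modest pileups, in a class that reached 23.6 FPM. A ranking by fold favours sites of low control level. JH431844, 12499 to 12654, had 6.78 FPM (4.39 to 10.01) over a control level of 0.784, the floor of the list, and a fold of 6.68. AFFK01005153, 644 to 824, had 7.60 (5.05 to 11.0), and AFFK01018194, 60 to 205, had 5.97 (3.74 to 9.04). JH432114, 746148 to 746284, had 5.70 (3.53 to 8.71), also over the floor, and JH432134, 34102 to 34240, had 5.43 (3.31 to 8.38). None of the 5 had a peak of CopiaMBD1 or CopiaMBD3 on either DNA kind. Of all 106, 6 (5.66%, 2.11 to 11.9) had a native peak of CopiaMBD3, and 2 of those 6 also one of CopiaMBD1.

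The lost sites were also set against the other domains' amplified-DNA lists. An amplified-DNA peak of CopiaMBD1 lay on 29 of the 13974 lost CopiaMBD2 sites (0.208%, 0.139 to 0.298) and one of CopiaMBD3 on 42 (0.301%, 0.217 to 0.406). Lost sites make up 99.8% of all native CopiaMBD2 peaks. These shares thus describe nearly the whole native list and cannot be read as particular to lost sites. The other domains' amplified-DNA lists were called against the HaloTag-only library of amplified DNA and the lost sites against that of native DNA. Kept sites are not counted in this way, since their amplified-DNA peaks share a HaloTag-only library with those lists. Examples among the 10 kept sites of highest amplified-DNA fold are AFFK01005886, with amplified-DNA folds of 3.798 for CopiaMBD2 and 5.27 for CopiaMBD3, and AFFK01019883, with 4.22 and 3.79. Most of these 10 had no amplified-DNA peak of another domain.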

How the data were processed

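Peaks were called per library with MACS2 version 2.1.0.20150731, per the file headers, at a q-value of 0.05, keeping 1 tag per position and sampling the larger library down to the smaller. Among tools in the submitters' processing notes are BS-Seeker2, Bowtie2, Bowtie, fastp and CASAVA 1.8.2, with no role stated. No source used here gives the genome build, and no genome sequence or annotation was used. Positions are 1-based as deposited. The deposited pileup is a coverage signal not scaled to depth. The deposited fold enrichment, the authors' ratio, is (pileup + 1) / (local control level + 1), from which the control level was recovered. The deposited −log10 p and −log10 q are those of the summit, per the file headers.

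Overlap, widths, spacing and intervals were computed with Python 3.11.15, numpy 2.4.6, pandas 2.3.3 and scipy 1.17.1, drawn with matplotlib 3.10.9, and checked on simulated lists. Pileups were divided by the tags of the smaller library of each call. Down-sampling may leave slightly fewer tags. Named sites are the 5 lost, 10 kept and 5 amplified-only peaks of highest fold (on amplified DNA for kept sites). They also include the 3 widest and 3 highest-pileup native peaks and the 5 sequences with most native peaks. Members and rules were chosen with earlier results of these data known. Shares of native CopiaMBD2 peaks overlapping native peaks of other domains, planned at first, are not given, since those lists share a HaloTag-only library. As a class, only amplified-only peaks, called against another library, were set against them. At single named native sites the folds of the other domains are given as values only.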

Additional observations from a re-analysis of the deposited data

How the results depend on the processing

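Of 50 values recomputed under other settings, 24 stayed close (a peak-number ratio within 1.5 times, other values inside the interval). The ratio of native to amplified peaks, 105, was 906 at a −log10 q of at least 10 (4 amplified-DNA peaks), 637 at a fold of at least 5 (9 peaks), 47.7 on sequences with a peak beyond 100 kb and 174 per 1000000 tags. The kept share of 0.193% was 0.0552% at that q, 0.0523% at that fold and 1.504% with the 133 native peaks of highest −log10 q. The share of amplified-DNA peaks on a native peak, 20.3%, was 50%, 33.3% and 1.504% under these 3 settings, 11.1% on sequences with a peak beyond 100 kb and 13.5% at a reciprocal overlap of 50%. At a −log10 q of at least 10, with 2 kept and 2 amplified-only peaks left, median width was 259 bp at lost and 168.5 bp at amplified-only peaks, the contig share 50.3% at lost, 100% at kept and at their amplified-DNA peaks and 50% at amplified-only peaks. Median pileup in FPM there was 12.6 at lost, 32.8 at kept, 16.01 at the amplified-DNA peaks on them and 7.19 at amplified-only peaks, and native spacing was 3765 bp. No amplified-DNA spacing was left there. The share of lost sites able to pass the amplified-DNA call moved from 91.2% to 99.3, 65.0 and 80.7% under the limits described above, the last 2 of which were chosen after seeing the data, as was a limit on the control level to under 3 times the lowest (ratio 119, kept 0.162%). The cause of these shifts was not tested. No paired analysis was possible because every group has 1 library. Depth limits all statements on the 27 kept and 106 amplified-only sites.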
